A study of Mus musculus with 12 samples.

Results

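The comparison described here is cuprizone against control in corpus callosum of mice whose microglia lack the aryl hydrocarbon receptor (AHR). It uses the 6 libraries labelled AHR CKO, of 12 in the series, and the 13372 genes, of 15584 in the deposited table, whose FPKM was 1 or more in 3 or more of these 6. FPKM scale the fragments of a gene by its transcript length and by all fragments mapped in the library. The 2 groups are 3 AHR CKO libraries from the cuprizone model and 3 AHR CKO control libraries, so the microglial deletion is, by the labels, common to both. The labels give no allele state for single mice, and this may differ between libraries. The 6 wild-type (WT) libraries, 3 cuprizone and 3 control, are used for the test of whether the response differed by genotype and, within the shared model, for the estimate of the spread. The sources used here do not give the Cre line behind the deletion, how much cuprizone the mice got or for how long, or the age and sex of the mice. They do not say that replicates were separate animals either, so p-values reflect only a spread among samples that may be technical. The transcripts pointed to male mice: in all 12 libraries Ddx3y, on chromosome Y, had 13.8 FPKM or more and Xist 0.0627 FPKM or less.

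Cuprizone is a copper chelator that, fed to mice, kills the oligodendrocytes that wrap axons in myelin, most visibly in the corpus callosum, the fibre tract that joins the cerebral hemispheres. Microglia, the resident macrophages of the brain, gather there, engulf myelin debris and handle its cholesterol, and astrocytes become reactive, while precursor cells can later rebuild the sheaths. AHR is a transcription factor activated by ligands that include tryptophan metabolites. With its partner ARNT it drives genes such as Cyp1b1, Tiparp and Nqo1.

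The libraries summed to 458842 to 519470 FPKM. A rough depth of 12900000 to 14900000 fragments came from the median FPKM times kilobases within a window of 0.05 to 0.12. Only 9 to 20 genes per library lay in this window. The window alone confines the depth to 8330000 to 20000000 fragments, so it is a guess at the order and not a measurement. Across genes the libraries correlated at r = 0.98 to 0.993 within a group. The first principal component of the 6 libraries held 59.8% of the variance and parted the treatments. Markers of the labelled tissue were abundant: Mbp, a structural protein of compact myelin, had 2832, 2966 and 3428 FPKM with cuprizone, against 6367, 6030.2 and 6505 FPKM in controls. Transcripts of neighbouring structures were present and varied between libraries of 1 group. Ttr, a choroid plexus marker, had 3688, 993 and 2787 FPKM with cuprizone, against 1838, 3497 and 406 FPKM in controls, and the 14 striatal neuron markers summed to 929 to 1805 FPKM with cuprizone and 1421 to 2259 FPKM in controls. None of the 13 choroid plexus or 14 striatal markers passed the test between treatments, and their part in the results was not tested.

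Microglial genes set some of these libraries apart. Cx3cr1, the fractalkine receptor of microglia, on chromosome 9 at 119901616 to 120069879 (GRCm38), had 1.16, 22.7 and 29.6 FPKM with cuprizone, against 1.05, 9.598 and 0.801 FPKM in controls. In WT libraries it had 69.4, 49.4 and 58.7 FPKM with cuprizone, against 24.9, 24.4 and 22.6 FPKM in controls. AHR CKO cuprizone replicate 1 and AHR CKO control replicates 1 and 3 were thus near 1 FPKM, and the other AHR CKO libraries were well above. The treatment difference in AHR CKO did not pass (log2 change 1.77, SE 0.85, adjusted p = 0.229). Without AHR CKO cuprizone replicate 1, the only treated library near 1 FPKM, it passed (log2 change 2.99, adjusted p = 0.00685). That pass follows from leaving out the low treated library, so it is no test of the treatment. Tmem119, another microglial marker, showed no such split, with 16.6, 14.8 and 16.9 FPKM with cuprizone, against 15.2, 15.7 and 16.8 FPKM in controls. Csf1r, the receptor that keeps microglia alive, had 39.6, 71.2 and 80.7 FPKM with cuprizone, against 30.2, 28.8 and 26.5 FPKM in controls. P2ry12, a purine receptor of resting microglia, had 11.4, 15.7 and 18.3 FPKM with cuprizone, against 20.8, 20.8 and 18.96 FPKM in controls. Replicate 1 was the lowest cuprizone library for Csf1r and P2ry12 as well as Cx3cr1. Ahr itself, on chromosome 12 at 35497974 to 35535038, had 1.48, 1.76 and 2.57 FPKM with cuprizone, against 1.79, 1.41 and 2.07 FPKM in controls (adjusted p = 0.8). This does not check the deletion, because whole tissue holds many other cells, and the sources used here do not say which exons were removed.

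**Figure D1:**
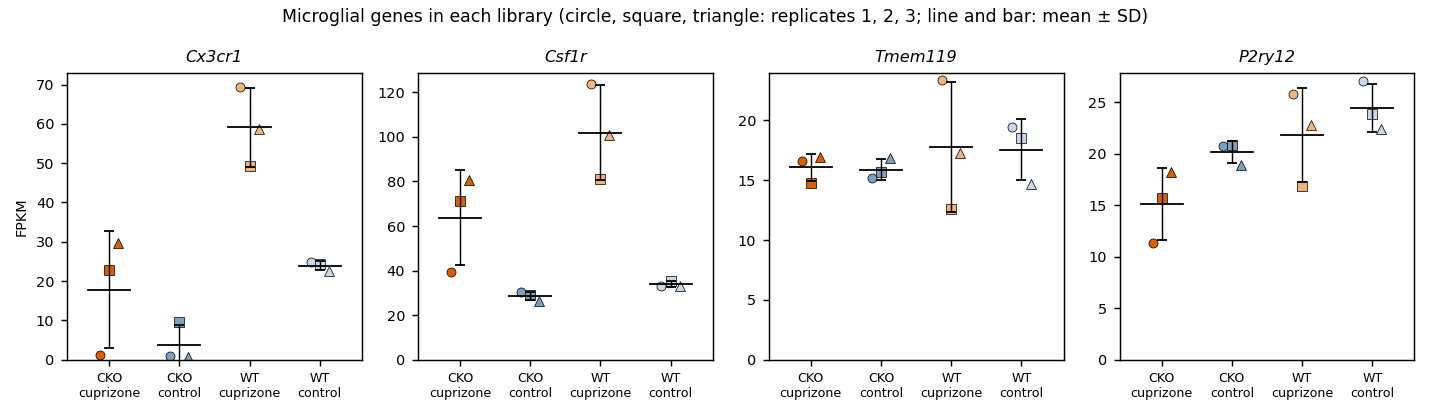
FPKM of 4 microglial genes in each library (y axis, from 0), in AHR CKO cuprizone, AHR CKO control, WT cuprizone and WT control (x axis), with mean ± SD of 3 libraries. Cx3cr1 lies near 1 FPKM in 3 AHR CKO libraries, 1 of them treated, whereas Tmem119 spans a narrow range in both AHR CKO groups.

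Cuprizone changed 1372 of the 13372 genes (10.3%) in AHR CKO corpus callosum at an adjusted p under 0.05. Of these 964 rose (7.21%) and 408 fell (3.05%), and the median log2 change over all tested genes was -0.01. Group means differed by at least 2-fold for 535 of the genes that rose and 93 of those that fell. The values of the 3 cuprizone and 3 control libraries did not overlap for any of the 964 that rose and overlapped for 4 of the 408 that fell. A lack of overlap in a called gene below thus comes with the call and adds no support to it. List genes below were mostly picked by small adjusted p, which also favours narrow ranges. Among all tested genes 14.2% lay above the controls without overlap and 14.8% below. Of the 964, 132 were at 1 FPKM or more in every cuprizone library and in no control library, so they entered the test through the group in which they were high. Rescaling the libraries to a common total gave 745 higher and 533 lower, and quantile normalization gave 910 and 614, so that 58.3% and 59.7% of calls were higher, against 70.3% with the deposited values. Without AHR CKO cuprizone replicate 1 the counts were 914 higher and 241 lower, without AHR CKO control replicate 1 they were 666 and 163, and without AHR CKO control replicate 2 they were 677 and 188.

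The largest increases were in Cxcl10, Cst7, Clec7a, Lyz2, Lgals3, Ccl3, Ccl5, Cd74, Spp1, Serpina3n, Tgm1 and Nupr1. They comprise chemokines, products of activated microglia and phagocytes, an astrocyte protease inhibitor (Serpina3n) and a stress-induced transcription regulator (Nupr1). Tgm1, a transglutaminase that cross-links proteins, is in none of the gene lists used, and had 7.65, 13.7 and 21.01 FPKM with cuprizone, against 0.127, 0.0505 and 0.16001 FPKM in controls (log2 change 3.66, SE 0.25, adjusted p = 5.99e-06). Its 3 control values were far below 1 FPKM and rest on few fragments. Like Cxcl10, Cst7, Clec7a and Ccl5, Tgm1 entered the test through the cuprizone libraries alone. The largest decreases included those in Mal, Ppp1r14a, Fa2h, Efhd1, Ugt8a, Mog, Carns1, Ninj2, Klk6 and Nmral1. Most of these are genes of myelin or of the cells that make it. Outside the lists, Efhd1, a calcium-binding mitochondrial protein, had 19.5, 17.6 and 15.5 FPKM with cuprizone, against 58.5, 54.6 and 53.3 FPKM in controls. Carns1, which makes carnosine, had 2.19, 1.95 and 1.73 FPKM with cuprizone, against 7.17, 6.68 and 7.34 FPKM in controls. Nmral1, a sensor of NADPH, had 8.04, 6.39 and 4.18 FPKM with cuprizone, against 19.1, 15.998 and 16.8 FPKM in controls. These 3 genes fell on the log2 scale by 1.61, 1.45 and 1.38. Their groups did not overlap, which the rule that named them required.

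**Figure D2:**
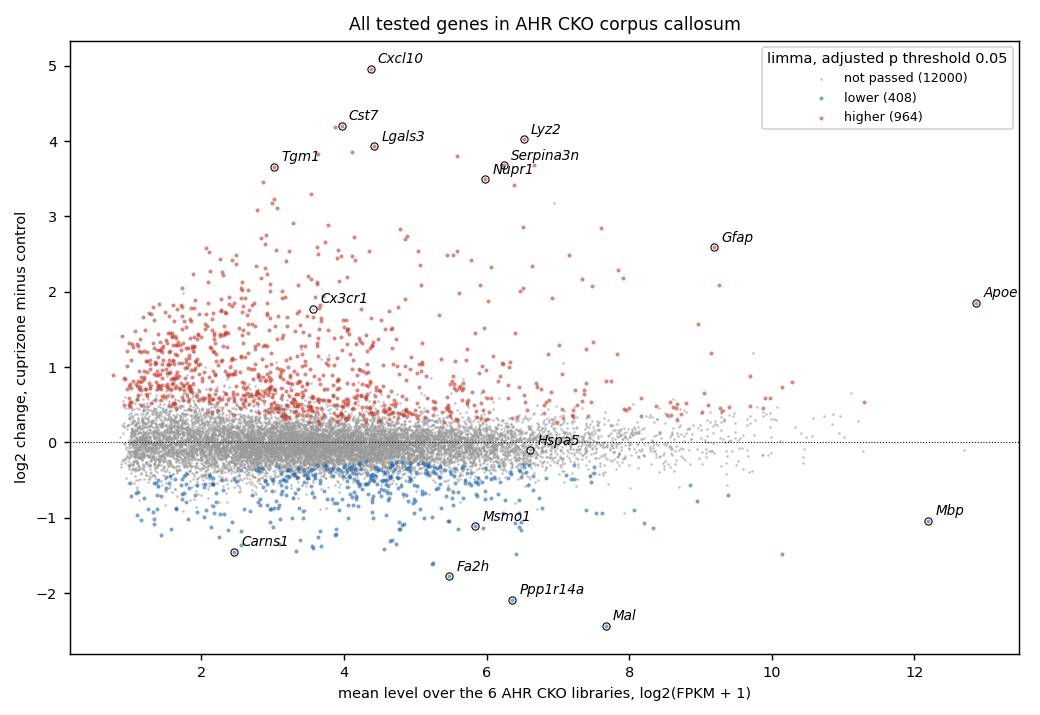
Log2 change (y axis, AHR CKO cuprizone minus AHR CKO control) against mean level over the 6 libraries (x axis, log2 of FPKM + 1) for the 13372 tested genes, with genes that rose in red, genes that fell in blue and the rest in grey. The increases reach 4.96 for Cxcl10, while the decreases stop at -2.43 for Mal, and Apoe and Mbp lie at the far right among the most abundant transcripts.

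Most structural myelin transcripts fell. Of 17 structural myelin proteins 13 fell, 1 rose and 3 did not pass, with a median log2 change of -1.04. Mog, a glycoprotein on the outer surface of the sheath, had 42.6, 49.05 and 40.2 FPKM with cuprizone, against 131, 131 and 112 FPKM in controls. Treated libraries were all below the lowest control (log2 change -1.48, SE 0.21, adjusted p = 0.000646). Mag, an adhesion protein of the inner sheath, had 103, 126 and 119.5 FPKM with cuprizone, against 224, 216 and 210.5 FPKM in controls. The 1 member that rose, Cd9, is a tetraspanin that activated microglia also express. Of 21 further enzymes and markers of mature oligodendrocytes 14 fell and 7 did not pass, with a median of -0.90. Ppp1r14a, an inhibitor of myosin phosphatase, had 39.95, 30.4 and 22.3 FPKM with cuprizone, against 132, 128 and 134 FPKM in controls (log2 change -2.09, SE 0.24, adjusted p = 0.000131). Anln, a cytoskeletal scaffold of myelin, had 5.36, 5.74 and 5.48 FPKM with cuprizone, against 17.6, 15.1 and 15.2 FPKM in controls. S1pr5, a lipid receptor of oligodendrocytes, had 16.2, 13.2 and 12.7 FPKM with cuprizone, against 39.3, 33.97 and 38.4 FPKM in controls. In each of these 3 genes the treated libraries lay well below every control. Klk6, a secreted protease, had 5.297, 5.11 and 6.03 FPKM with cuprizone, against 18.01, 16.5 and 14.2 FPKM in controls. Ninj2 had 3.53, 3.803 and 5.92 FPKM with cuprizone, against 18.2, 10.6 and 12.4 FPKM in controls, and its call was lost without AHR CKO cuprizone replicate 1 or 2 or AHR CKO control replicate 1 (largest adjusted p = 0.101). In whole tissue, fewer cells of a type and less RNA per cell cannot be told apart.

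Lists for earlier stages of the oligodendrocyte lineage hold too few genes to set their share of calls apart from the 10.3% of all tested genes. Of 15 lineage transcription factors 2 fell (13.3%, against 3.05% of all tested genes) and 13 did not pass, with a median of -0.12. Sox8 had 23.8, 27.3 and 26.8 FPKM with cuprizone, against 45.96, 40.4 and 39.9 FPKM in controls (adjusted p = 0.00207). Zfp536, a repressor of differentiation, had 0.711, 0.886 and 1.302 FPKM with cuprizone, against 2.79, 2.37 and 1.49 FPKM in controls, a call lost without either of AHR CKO cuprizone replicates 1 and 2 or AHR CKO control replicates 1 and 2. None of 12 genes of differentiating oligodendrocytes passed (median 0.20). Bcas1, a marker of early myelinating cells, had 259, 186 and 182 FPKM with cuprizone, against 169.7, 166 and 176 FPKM in controls (adjusted p = 0.48). None of 14 precursor markers passed either (median -0.01): Pdgfra, the growth factor receptor of precursors, had 9.11, 9.34 and 10.2 FPKM with cuprizone, against 11.7, 11.6 and 9.23 FPKM in controls. The proteoglycan gene Cspg4 had 3.87, 4.08 and 4.75 FPKM with cuprizone, against 3.39, 2.83 and 3.74 FPKM in controls. Treated and control values overlapped for Pdgfra and did not for Cspg4 (adjusted p = 0.24).

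Lipid genes parted by role. Of 12 enzymes for the galactolipids and sphingolipids of myelin 3 fell (25%, against 3.05% of all tested genes) and 9 did not pass. Fa2h, which hydroxylates their fatty acids, had 18.3, 20.1 and 18.9 FPKM with cuprizone, against 75.02, 65.6 and 63.5 FPKM in controls (log2 change -1.78, SE 0.18, adjusted p = 7.09e-05). Ugt8a, which adds the galactose, had 13.1, 17.5 and 23.6 FPKM with cuprizone, against 62.6, 58.1 and 46.5 FPKM in controls. Cers2, the ceramide synthase for very long chains, had 42.3, 44.9 and 50.3 FPKM with cuprizone, against 83.8, 78.6 and 70.2 FPKM in controls, a call that ended when AHR CKO control replicate 1 or 2 was left out. Of 25 genes of sterol synthesis and its regulation 17 fell and 8 did not pass, with a median of -0.71. Msmo1, a sterol oxidase, had 35.97, 34.3 and 35.6 FPKM with cuprizone, against 77.04, 77.2 and 77.6 FPKM in controls (log2 change -1.11, SE 0.09, adjusted p = 1.94e-05). Idi1, which isomerizes isoprenoid units, had 3.28, 3.998 and 4.01 FPKM with cuprizone, against 12.4, 11.5 and 9.64 FPKM in controls. Hmgcs1, at the entry to the pathway, had 50.98, 52.3 and 56.05 FPKM with cuprizone, against 119, 111 and 108 FPKM in controls. For these 3, picked by small adjusted p, the treated values lay below every control value, with narrow ranges within each group. Insig1, a sterol-regulated retention protein, had 27.2, 23.97 and 21.5 FPKM with cuprizone, against 47.4, 49.1 and 49.7 FPKM in controls, again without overlap.

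In fatty acid synthesis 4 of 12 genes fell (33.3%, against 3.05% of all tested genes) and 1 rose (8.33%, against 7.21%). Scd1, a desaturase, had 64.3, 56.9 and 55.2 FPKM with cuprizone, against 124, 113 and 104 FPKM in controls. Elovl6, an elongase, had 7.56, 7.92 and 8.62 FPKM with cuprizone, against 14.6, 13.8 and 13.4 FPKM in controls. Fasn, the fatty acid synthase, had 26.6, 26.2 and 23.4 FPKM with cuprizone, against 34.8, 32.2 and 33.4 FPKM in controls, a call lost after a correction for transcript length and GC content. The 3 enzymes were thus lower in every treated library. The gene that rose was Srebf1, which encodes a transcription factor for this pathway, with 40.9, 44.1 and 49.2 FPKM with cuprizone, against 22.5, 22.5 and 18.7 FPKM in controls (log2 change 1.04, SE 0.12, adjusted p = 0.000121). Genes of lipid transport moved the other way: 6 of 14 lipoproteins and efflux genes rose (42.9%) and none fell (median 0.39). Apoe, the main lipid carrier of brain, had 9599.8, 11556 and 14005 FPKM with cuprizone, against 2976, 3070.4 and 3585 FPKM in controls, a 3.65-fold difference of means (log2 change 1.86, SE 0.20, adjusted p = 8.93e-05). Apoc1, a second apolipoprotein, had 16.8, 54.5 and 72.6 FPKM with cuprizone, against 5.82, 4.38 and 4.51 FPKM in controls, with treated replicate 1 well below the other two. Replicate 1 was also the lowest treated library for Apoe. Abca1, which exports cholesterol, had 12.2, 17.7 and 25.3 FPKM with cuprizone, against 6.12, 5.42 and 3.98 FPKM in controls. Npc2, which moves it out of lysosomes, had 52.1, 56.5 and 64.3 FPKM with cuprizone, against 35.5, 33.6 and 30.9 FPKM in controls. Of 12 lipid storage genes 3 rose (25%, against 7.21% of all tested genes). Plin2, a coat protein of lipid droplets, had 12.1, 15.5 and 20.7 FPKM with cuprizone, against 4.28, 4.33 and 4.13 FPKM in controls. Ch25h, which makes 25-hydroxycholesterol, had 5.73, 5.31 and 10.2 FPKM with cuprizone, against 1.31, 0.404 and 0.3395 FPKM in controls. Fabp5, a fatty acid carrier, had 169, 166 and 157 FPKM with cuprizone, against 117, 126 and 138 FPKM in controls. The Fabp5 call was lost without any 1 of AHR CKO cuprizone replicates 1 and 2 and AHR CKO control replicates 1 and 2 (largest adjusted p = 0.117).

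Genes of the node of Ranvier and the paranode, where axon and sheath meet, fell in 7 of 15 cases and rose in none. The share that fell was 46.7%, against 3.05% of all tested genes. Their median was -0.33, or -0.155 after a correction for transcript length and GC content. Cntn2, an adhesion protein next to the paranode, had 16.5, 15.4 and 14.3 FPKM with cuprizone, against 32.4, 30.02 and 30.4 FPKM in controls. The axonal potassium channel Kcna1 had 18.8, 19.3 and 16.9 FPKM with cuprizone, against 31.3, 29.6 and 28.4 FPKM in controls (log2 change -0.67, SE 0.09, adjusted p = 0.000565). Ank3, the anchor of nodal sodium channels, had 29.03, 32.2 and 28.9 FPKM with cuprizone, against 40.5, 38.3 and 38.6 FPKM in controls, a call lost after that correction. These 3 showed no overlap between groups. Epb4.1l3, a cytoskeletal linker, had 45.1, 40.04 and 38.02 FPKM with cuprizone, against 58.9, 57.97 and 63.6 FPKM in controls. Of 14 genes of the axonal cytoskeleton and growth 1 fell (7.14%, against 3.05% of all tested genes). That gene, Mapt, which encodes tau, had 74.5, 74.9 and 73.6 FPKM with cuprizone, against 104, 99.2 and 105 FPKM in controls. Its adjusted p was 0.0508 without AHR CKO control replicate 1. No gene passed among 20 of excitatory neurons and synapses (median -0.24) or 12 of inhibitory interneurons (median -0.14). Snap25, a protein of synaptic vesicle fusion, had 827, 963 and 829 FPKM with cuprizone, against 850.4, 953 and 1147 FPKM in controls.

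**Figure D3:**
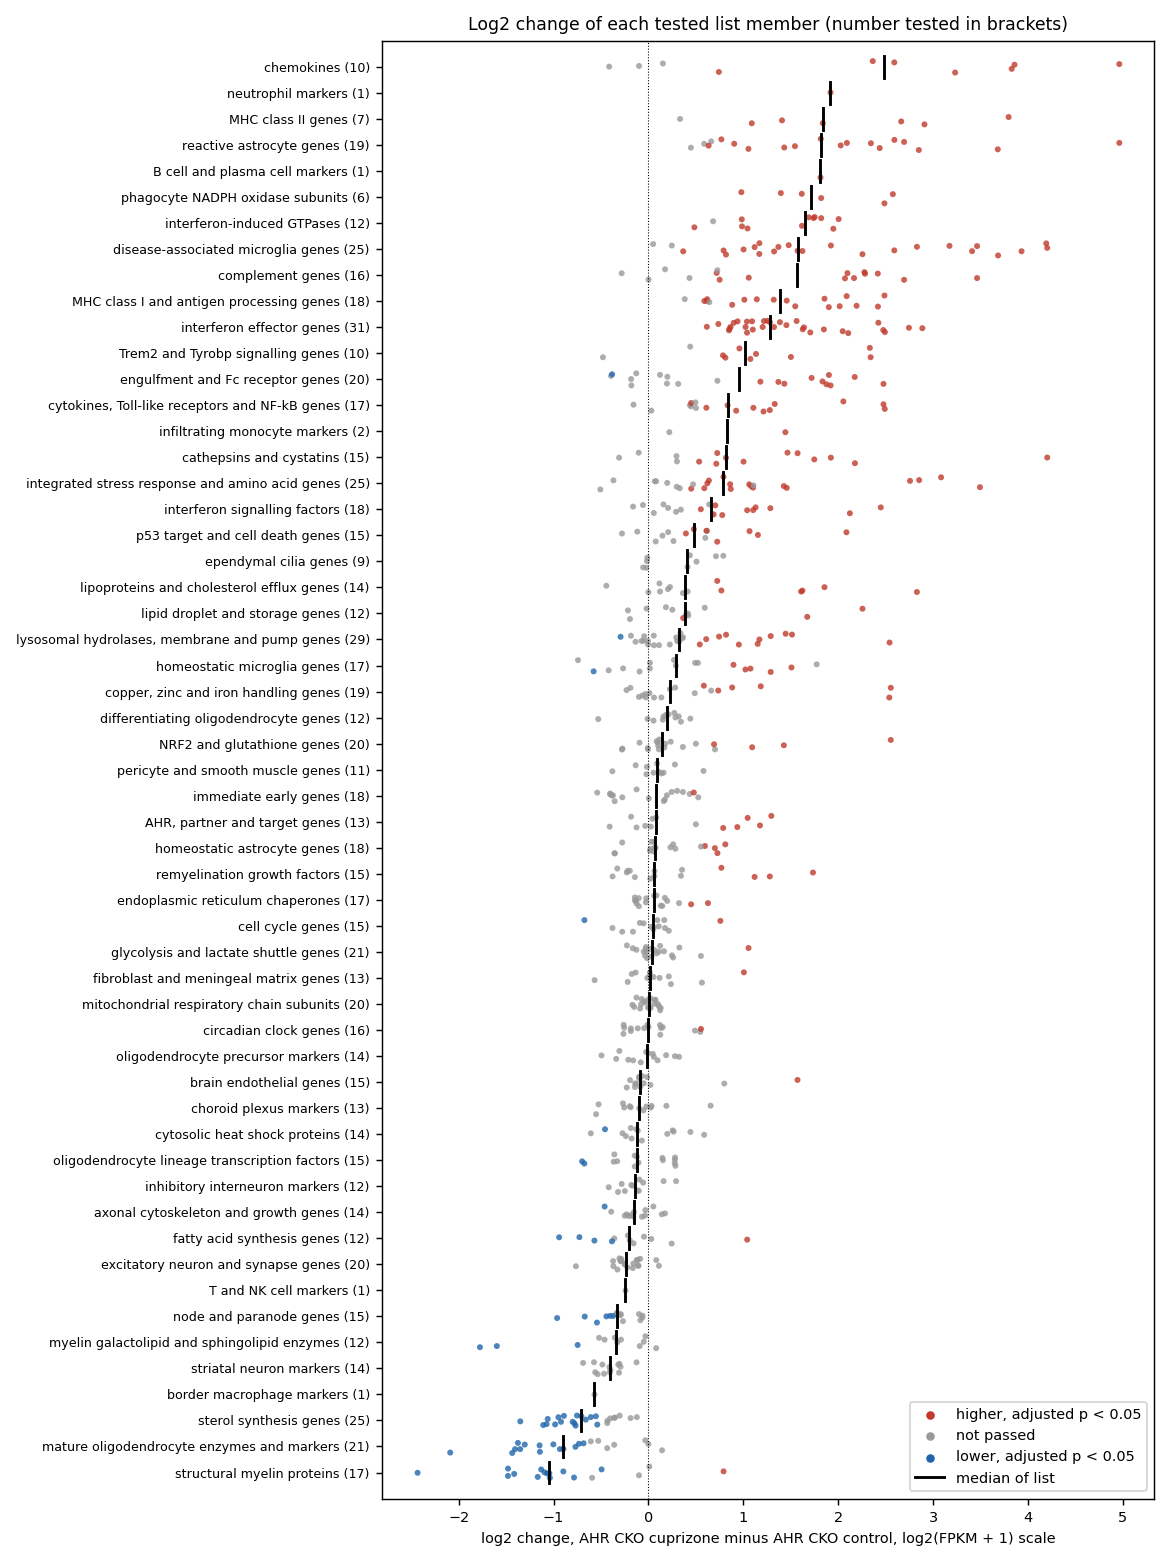
Log2 change of each tested member (points, x axis, AHR CKO cuprizone minus AHR CKO control) in each of the 55 gene lists (y axis, number tested in brackets), ordered by the median of the list (black bars). Red points rose, blue points fell and grey points did not pass. The 4 lists at the top are chemokines, neutrophils (1 tested gene), MHC class II and reactive astrocytes, and the 3 lists at the bottom are structural myelin, mature oligodendrocytes and sterol synthesis.

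Activated microglial genes rose. Of 26 genes of disease-associated microglia 25 were tested, 23 rose and 2 did not pass, with a median of 1.57, though 5 of the 25 reached 1 FPKM only with cuprizone. Clec7a, the receptor dectin-1, had 16.98, 26.98 and 36.7 FPKM with cuprizone, against 0.585, 0.371 and 0.426 FPKM in controls. Cst7, a cystatin of lysosomal proteases, had 21.5, 26.6 and 37.9 FPKM with cuprizone, against 0.312, 0.607 and 0.8298 FPKM in controls. Lgals3, galectin-3, had 27.2, 35.6 and 55.01 FPKM with cuprizone, against 1.98, 1.46 and 1.21 FPKM in controls (log2 change 3.93, SE 0.24, adjusted p = 5.45e-06). No control value of these 3 genes came near a treated one. Spp1, osteopontin, had 133, 163 and 265 FPKM with cuprizone, against 13.4, 12.5 and 13.01 FPKM in controls. Itgax, the integrin CD11c, had 8.02, 11.9 and 17.1 FPKM with cuprizone, against 0.254, 0.0167 and 0.227 FPKM in controls, its control values resting on few fragments. Homeostatic microglia genes were mixed, with 5 higher, 1 lower and 11 not passing of 17 (median 0.29). These are 29.4% higher and 5.88% lower, against 7.21% and 3.05% of all tested genes. Fcrls had 26.7, 36.3 and 46.7 FPKM with cuprizone, against 10.7, 13.5 and 11.6 FPKM in controls. Olfml3 had 21.97, 30.8 and 38.4 FPKM with cuprizone, against 14.3, 13.1 and 14.98 FPKM in controls. Treated replicate 1 was the lowest treated library for both. The gene that fell was the sugar transporter Slc2a5, with 1.28, 1.12 and 0.885 FPKM with cuprizone, against 2.26, 1.97 and 2.14 FPKM in controls.

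Engulfment and digestion genes rose in part. Trem2, the lipid-sensing receptor of microglia, had 89.4, 112 and 129.9 FPKM with cuprizone, against 18.96, 19.7 and 24.1 FPKM in controls, a 5.27-fold difference of means (log2 change 2.33, SE 0.15, adjusted p = 5.45e-06). Tyrobp, its signalling adaptor, had 139, 167 and 189.9 FPKM with cuprizone, against 24.2, 34.7 and 37.2 FPKM in controls. In all, 8 of 10 tested genes of this pathway rose, 1 of the 10 at 1 FPKM only with cuprizone. The adaptor Pik3ap1 had 3.396, 5.23 and 6.801 FPKM with cuprizone, against 1.32, 1.405 and 0.685 FPKM in controls. Vav1, a signalling protein of blood and immune cells, had 2.69, 4.26 and 5.52 FPKM with cuprizone, against 1.403, 1.47 and 1.28 FPKM in controls. Of 20 engulfment and Fc receptor genes 10 rose, 1 fell and 9 did not pass (median 0.95), 1 of the 20 at 1 FPKM only with cuprizone. Axl, a receptor for dying cells, had 23.9, 31.5 and 38.2 FPKM with cuprizone, against 11.9, 11.98 and 9.92 FPKM in controls. Itgb2, an integrin of complement receptors, had 11.003, 18.4 and 24.8 FPKM with cuprizone, against 3.06, 2.805 and 3.22 FPKM in controls. Fcgr1 had 5.29, 7.22 and 7.94 FPKM with cuprizone, against 1.41, 1.31 and 1.33 FPKM in controls. The gene that fell, Mfge8, encodes a bridge between phagocyte and dying cell, and is also made by astrocytes. All 6 subunits of the phagocyte NADPH oxidase rose, 2 of them reaching 1 FPKM only with cuprizone. Cybb, its catalytic subunit, had 3.54, 5.94 and 9.26 FPKM with cuprizone, against 0.154, 0.206 and 0.0915 FPKM in controls. Its partner Cyba had 59.9, 74.8 and 97.2 FPKM with cuprizone, against 14.1, 10.9 and 13.3 FPKM in controls.

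Among cathepsins and their inhibitors 11 of 15 rose (median 0.82), 1 of the 15 at 1 FPKM only with cuprizone. Ctss had 265, 398 and 529.6 FPKM with cuprizone, against 91.2, 78.7 and 82.05 FPKM in controls. Ctsd had 611, 738 and 903 FPKM with cuprizone, against 239.6, 268 and 239 FPKM in controls. Ctsz had 161, 186 and 227 FPKM with cuprizone, against 46.1, 49.5 and 51.99 FPKM in controls. Of 29 other lysosomal genes 11 rose, 1 fell and 17 did not pass (median 0.33). These are 37.9% higher and 3.45% lower, against 7.21% and 3.05% of all tested genes. Cd68, a glycoprotein of phagocyte lysosomes, had 54.8, 90.7 and 98.7 FPKM with cuprizone, against 12.7, 13.9 and 11.7 FPKM in controls. Grn, progranulin, had 70.8, 98.003 and 105 FPKM with cuprizone, against 30.2, 29.02 and 33.6 FPKM in controls. The 1 that fell was the proton pump subunit Atp6v1a. Complement genes rose in 11 of 16 cases (median 1.56), with 6 of the 16 at 1 FPKM only with cuprizone. C1qa, C1qb and C1qc encode the chains of the first component, and C1qa had 299, 378 and 463 FPKM with cuprizone, against 72.4, 74.1 and 81.99 FPKM in controls, a 4.99-fold difference of means (log2 change 2.28, SE 0.17, adjusted p = 1e-05). Lyz2, lysozyme of myeloid cells, had 95.2, 156 and 266 FPKM with cuprizone, against 10.9, 8.52 and 7.28 FPKM in controls. Over all 964 genes that rose, AHR CKO cuprizone replicate 1 was the lowest treated library for 659 (68.4%) and replicate 3 the highest for 712 (73.9%). Replicate 1 was also the lowest treated library for 245 of the 408 genes that fell. Without replicate 1 the named calls on microglial and phagocytic genes remained past the threshold, with Fabp5 as the exception. As replicate 1 was mostly the lowest treated library, this is a weak check of the increases. Without replicate 3, 11 of 143 named calls were lost: Aqp4, Cyp1b1, Fn1, Ier3, Pdia4, Rrm2, S100a4, Sdf2l1, Slc1a3, Ugt1a6a and Ugt1a7c. None of these is in the microglial or phagocyte lists above.

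**Figure D4:**
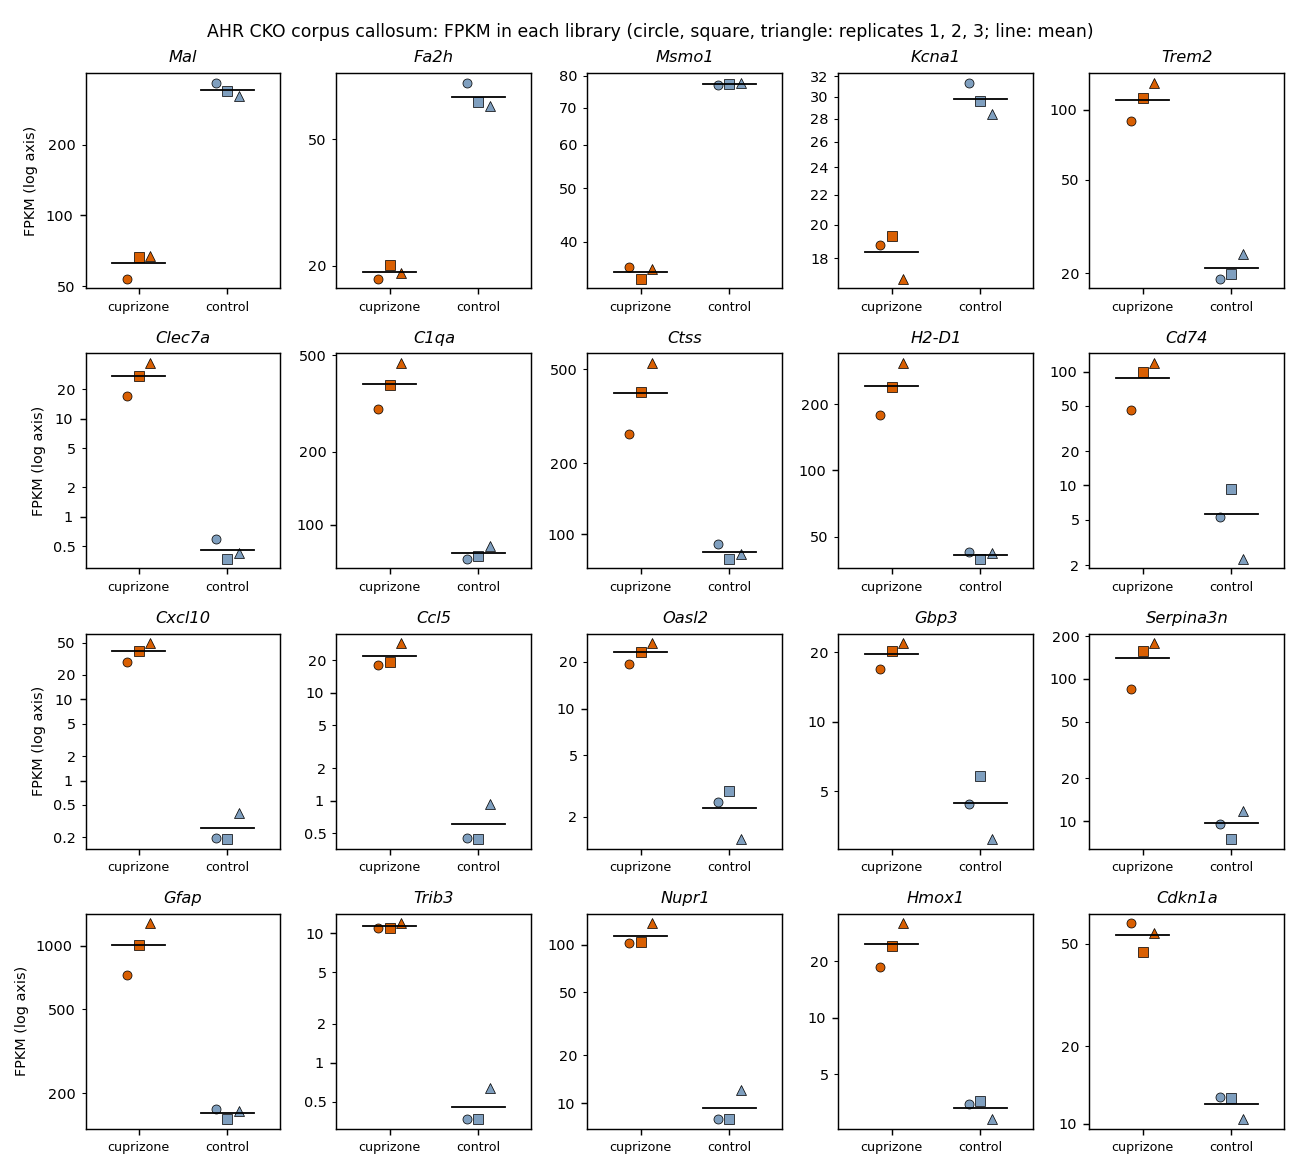
FPKM (y axes, log scale) of 20 genes in the 3 AHR CKO cuprizone libraries (left in each panel) and the 3 AHR CKO control libraries (right), with the mean as a line. Myelin, sterol and axonal genes in the top row lie below the controls, and Trem2 and the remaining genes lie above them, with no overlap in any panel.

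Antigen presentation and interferon genes rose as a large group. Among 18 MHC class I and antigen-processing genes 16 rose (median 1.39). The heavy chain gene H2-D1 had 179, 239.9 and 307 FPKM with cuprizone, against 42.4, 39.7 and 41.96 FPKM in controls. Psmb8, an immunoproteasome subunit, had 25.02, 26.02 and 35.6 FPKM with cuprizone, against 4.12, 4.101 and 5.43 FPKM in controls (log2 change 2.42, SE 0.17, adjusted p = 5.45e-06). The peptide transporter Tap1 had 9.47, 10.9 and 12.3 FPKM with cuprizone, against 2.35, 2.44 and 2.03 FPKM in controls. Groups were far apart for these 3. H2-Q4, another heavy chain gene, had 19.8, 27.5 and 31.2 FPKM with cuprizone, against 5.45, 4.54 and 4.59 FPKM in controls. Heavy chain genes are near-identical, so the counting could have split reads among them. Of 7 MHC class II genes 6 rose (median 1.84), 1 of the 7 at 1 FPKM only with cuprizone. Cd74, the invariant chain, had 46.1, 99.7 and 119 FPKM with cuprizone, against 5.27, 9.28 and 2.27 FPKM in controls (log2 change 3.80, SE 0.54, adjusted p = 0.000635). H2-Aa had 8.61, 17.2 and 22.6 FPKM with cuprizone, against 0.7097, 2.696 and 0.542 FPKM in controls. H2-Ab1 had 11.9, 24.9 and 29.4 FPKM with cuprizone, against 1.78, 3.94 and 1.897 FPKM in controls. For all 3 control replicate 2 was the highest control and treated replicate 1 the lowest treated library.

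All 31 tested interferon effector genes rose (median 1.28), 10 of them at 1 FPKM only with cuprizone. Ifit3, which binds viral RNA, had 44.01, 53.6 and 53.4 FPKM with cuprizone, against 7.11, 7.57 and 5.38 FPKM in controls. Ifitm3, which blocks viral entry, had 131, 145 and 157 FPKM with cuprizone, against 35.7, 47.1 and 23.3 FPKM in controls. Bst2, which tethers budding virus, had 68.8, 70.4 and 75.8 FPKM with cuprizone, against 10.1, 21.1 and 7.75 FPKM in controls. Treated libraries stood far above controls for these 3. Isg15, a ubiquitin-like protein, had 24.1, 25.5 and 34.1 FPKM with cuprizone, against 4.76, 6.67 and 2.07 FPKM in controls. Dhx58, a regulator of RNA sensing, had 2.64, 2.79 and 3.01 FPKM with cuprizone, against 0.569, 0.688 and 0.707 FPKM in controls. Of 18 signalling factors 10 rose (median 0.66). Irf7 had 21.2, 23.5 and 27.5 FPKM with cuprizone, against 3.42, 5.795 and 2.18 FPKM in controls. Irf9, a subunit of the factor that binds interferon response elements, had 15.1, 17.96 and 19.9 FPKM with cuprizone, against 6.91, 8.48 and 7.597 FPKM in controls. Irf8, also a lineage factor of microglia, had 11.6, 20.5 and 25.4 FPKM with cuprizone, against 3.48, 3.98 and 2.86 FPKM in controls. Of 12 interferon-induced GTPases 11 rose (median 1.65), 2 of the 12 at 1 FPKM only with cuprizone. Gbp2 had 10.04, 13.2 and 16.05 FPKM with cuprizone, against 2.74, 2.76 and 1.93 FPKM in controls. Irgm1 had 15.3, 19.4 and 21.5 FPKM with cuprizone, against 5.02, 4.93 and 3.73 FPKM in controls. Igtp had 9.25, 10.2 and 12.2 FPKM with cuprizone, against 2.63, 2.85 and 2.21 FPKM in controls. Of 10 chemokines 7 rose (median 2.48), 3 of the 10 at 1 FPKM only with cuprizone. Ccl3 had 17.9, 37.8 and 38.5 FPKM with cuprizone, against 1.01, 1.31 and 1.04 FPKM in controls. Ccl6 had 13.4, 21.7 and 25.5 FPKM with cuprizone, against 2.62, 1.81 and 2.87 FPKM in controls. Cxcl10, on chromosome 5 at 92346638 to 92348889, had 28.9, 39.5 and 49.1 FPKM with cuprizone, against 0.196, 0.191 and 0.399 FPKM in controls (log2 change 4.96, SE 0.38, adjusted p = 1.22e-05). It entered the test through the cuprizone libraries alone.

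Many interferon-induced promoters carry a response element of 2 GAAA repeats, and these stretches of promoter show it in 4 of the genes above with large increases. They come from RefSeq (GRCm38.p6), run 5′ to 3′ on the strand of the gene within the 250 bases before its start, and are printed with 25 bases on each side of the outermost matches. Capitals mark GAAA and GAAA parted by any 2 bases, searched on both strands, which reads as TTTC and TTTC where the element lies on the other strand. Overlapping matches merge in Bst2 and Isg15.
Cxcl10 chr5:92349068-92349127, minus strand: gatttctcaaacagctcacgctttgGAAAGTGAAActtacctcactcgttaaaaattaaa
Ifit3 chr19:34583348-34583441, plus strand: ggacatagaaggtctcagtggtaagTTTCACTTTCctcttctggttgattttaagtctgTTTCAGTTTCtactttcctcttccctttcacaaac
Bst2 chr8:71537562-71537627, minus strand: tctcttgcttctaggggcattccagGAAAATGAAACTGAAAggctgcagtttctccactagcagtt
Isg15 chr4:156200850-156200921, minus strand: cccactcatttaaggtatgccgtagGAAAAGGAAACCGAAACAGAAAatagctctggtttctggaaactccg
Counted over these 250 bases, the motif lay in 15 of the 34 genes with a promoter in the table that rose and belong to the interferon effector, GTPase or chemokine lists (44.1%). Over all tested members with a promoter in the table, called or not, it lay in 7 of 8 GTPases, 7 of 21 effector genes, 2 of 8 chemokines and 2 of 16 interferon signalling factors. It lay in 56 of 742 genes that rose (7.55%), 2 of 307 that fell (0.651%), 302 of 10071 tested genes (3.0%) and 936 of all 27025 promoters (3.46%). A match is a description of the letters and was not tested for binding.

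Inflammatory signalling and growth factor genes rose in part. Of 17 cytokines, Toll-like receptors and NF-kB genes 11 rose (median 0.83), 4 of the 17 at 1 FPKM only with cuprizone. Tlr2 had 5.32, 7.62 and 12.8 FPKM with cuprizone, against 0.763, 0.689 and 0.423 FPKM in controls. Its co-receptor Cd14 had 14.2, 24.9 and 37.6 FPKM with cuprizone, against 3.1999, 3.26 and 3.92 FPKM in controls. Bcl3, a regulator of NF-kB, had 2.3001, 5.79 and 5.04 FPKM with cuprizone, against 0.278, 0.187 and 0.244 FPKM in controls. Of 15 growth factors linked to remyelination 4 rose (26.7%, against 7.21% of all tested genes) and 11 did not pass (median 0.06). Igf1 had 2.79, 4.005 and 4.75 FPKM with cuprizone, against 1.31, 1.32 and 0.987 FPKM in controls. Tgfb1 had 9.93, 14.8 and 19.3 FPKM with cuprizone, against 5.32, 4.66 and 5.84 FPKM in controls. Cntf, a survival factor made by astrocytes, had 6.63, 7.71 and 10.03 FPKM with cuprizone, against 2.26, 1.65 and 1.31 FPKM in controls. The change in Cntf was the largest of the 4 (log2 change 1.73, SE 0.23, adjusted p = 0.000334).

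Reactive astrocyte genes rose in 16 of 19 cases (median 1.82), with 2 of the 19 at 1 FPKM only with cuprizone. Serpina3n had 85.2, 157 and 178 FPKM with cuprizone, against 9.58, 7.498 and 11.8 FPKM in controls, a 14.6-fold difference of means (log2 change 3.68, SE 0.29, adjusted p = 1.44e-05). Intermediate filaments of astrocytes also rose: Gfap had 722, 1010.1 and 1272 FPKM with cuprizone, against 167, 151 and 165 FPKM in controls. Vim had 263, 316 and 445 FPKM with cuprizone, against 48.2, 42.3 and 45.7 FPKM in controls. S100a6, a calcium-binding protein, had 84.3, 88.02 and 116 FPKM with cuprizone, against 25.6, 22.8 and 17.1 FPKM in controls. Treated replicate 1 was again the lowest treated library for each of the 4. Of 18 homeostatic astrocyte genes 4 rose (22.2%, against 7.21% of all tested genes) and none fell (median 0.07). Aldh1l1, a folate enzyme that marks astrocytes, had 40.5, 40.6 and 45.6 FPKM with cuprizone, against 27.7, 26.3 and 28.7 FPKM in controls. Mlc1, a membrane protein of their end feet, had 161, 187 and 209.9 FPKM with cuprizone, against 117, 115 and 109 FPKM in controls. Neither overlapped. The water channel Aqp4 had 44.5, 55.7 and 81.5 FPKM with cuprizone, against 37.4, 40.9 and 28.1 FPKM in controls, a call lost in 8 of the 12 fits that left out 1 library (largest adjusted p = 0.137). The glutamate transporter Slc1a3 had 196, 289 and 339 FPKM with cuprizone, against 171, 152 and 135 FPKM in controls, a call lost without AHR CKO cuprizone replicate 3 (adjusted p = 0.0504).

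The integrated stress response, through which cells answer amino acid shortage, unfolded protein or failing mitochondria, rose in 16 of 25 genes with none lower (median 0.79), 1 of the 25 at 1 FPKM only with cuprizone. Trib3, a pseudokinase target of this response, had 10.996, 11.04 and 11.96 FPKM with cuprizone, against 0.368, 0.369 and 0.636 FPKM in controls (log2 change 3.08, SE 0.22, adjusted p = 7.79e-06). It was the gene that reached 1 FPKM only with cuprizone. Nupr1 had 103, 105 and 137 FPKM with cuprizone, against 7.93, 7.96 and 12.1 FPKM in controls, a 12.3-fold difference of means. Atf5 had 153, 142 and 183 FPKM with cuprizone, against 19.8, 19.4 and 24.5 FPKM in controls. The treated replicates 1 and 2 lay close together in Trib3 and Nupr1, and replicate 2 was the lowest in Atf5. Atf3 had 8.39997, 12.3 and 15.7 FPKM with cuprizone, against 1.08, 0.796 and 0.803 FPKM in controls. The letters TGATGNAAN, found in response elements for C/EBP and ATF factors, lay on either strand of the 250 bases before the start in 6 of 22 of these genes (27.3%), against 2.34% of tested genes. Of 17 endoplasmic reticulum chaperones 2 rose (11.8%, against 7.21% of all tested genes), with a median of 0.06. Sdf2l1 had 17.2, 14.4 and 17.6 FPKM with cuprizone, against 7.95, 11.9 and 11.2 FPKM in controls. Pdia4 had 24.9, 24.4 and 29.8 FPKM with cuprizone, against 18.8, 20.9 and 17.2 FPKM in controls. Each call was lost in 8 of the 12 fits that left out 1 library (largest adjusted p = 0.175 and 0.147). Of 14 cytosolic heat shock proteins none rose and 1 fell (7.14%, against 3.05% of all tested genes). That gene, Hsph1, had 52.5, 55.2 and 50.1 FPKM with cuprizone, against 67.2, 72.7 and 78.2 FPKM in controls.

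Some listed genes of growth arrest, metal handling and oxidative stress rose, and none fell. Of 15 p53 target and cell death genes 7 rose (46.7%, against 7.21% of all tested genes), with a median of 0.48. Of the 15, 1 was at 1 FPKM only with cuprizone. Cdkn1a, the cell cycle inhibitor p21, had 59.9, 46.6 and 55.2 FPKM with cuprizone, against 12.7, 12.5 and 10.4 FPKM in controls (log2 change 2.09, SE 0.17, adjusted p = 1.77e-05), and here replicate 1 was the highest treated library. Fas, a death receptor, had 2.26, 3.55 and 4.25 FPKM with cuprizone, against 0.858, 0.774 and 1.14 FPKM in controls. Gsdmd, which forms membrane pores, had 2.82, 3.86 and 4.36 FPKM with cuprizone, against 1.38, 1.07 and 1.2005 FPKM in controls. Of 19 genes for copper, zinc and iron 6 rose (31.6%), with a median of 0.23. That median was 0.108 after quantile normalization and 0.143 with the length and GC correction. Mt2, a metallothionein, had 861, 695 and 809.5 FPKM with cuprizone, against 342, 331 and 364 FPKM in controls. Ftl1, the ferritin light chain, had 991, 1050.5 and 1167 FPKM with cuprizone, against 554, 544 and 641 FPKM in controls. Slc11a1, a metal transporter of phagosomes, had 9.57, 15.04 and 20.6 FPKM with cuprizone, against 1.698, 1.28 and 2.03 FPKM in controls. Of 20 NRF2 and glutathione genes 4 rose (20%, median 0.14). Hmox1, haem oxygenase, had 18.5, 24.1 and 31.7 FPKM with cuprizone, against 3.45, 3.57 and 2.88 FPKM in controls (log2 change 2.55, SE 0.17, adjusted p = 5.45e-06). Slc7a11, a cystine transporter, had 10.4, 14.99 and 21.6 FPKM with cuprizone, against 6.59, 5.04 and 3.61 FPKM in controls. Nqo1, which AHR also drives, had 9.22, 5.59 and 5.73 FPKM with cuprizone, against 4.99, 5.19 and 3.32 FPKM in controls and did not pass.

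Of 13 tested AHR partner and target genes 5 rose (38.5%, against 7.21% of all tested genes), with a median of 0.08. Of the 13, 2 were at 1 FPKM only with cuprizone. Il4i1, an enzyme whose products include AHR ligands, had 2.62, 2.84 and 4.47 FPKM with cuprizone, against 0.565, 0.874 and 0.7502 FPKM in controls (log2 change 1.30, SE 0.16, adjusted p = 0.00027). It reached 1 FPKM only with cuprizone. Ugt1a6a had 1.89, 3.19 and 4.43 FPKM with cuprizone, against 0.624, 1.67 and 1.16 FPKM in controls. Ugt1a7c had 1.39, 3.11 and 3.61 FPKM with cuprizone, against 1.08, 0.4001 and 0.764 FPKM in controls. Both are isoforms of 1 locus with shared exons, so reads may be split between them. Cyp1b1 had 1.42, 3.15 and 5.58 FPKM with cuprizone, against 0.818, 0.701 and 0.855 FPKM in controls (adjusted p = 0.0231). Tiparp, which modifies AHR with ADP-ribose and damps it, had 7.8997, 7.69 and 8.43 FPKM with cuprizone, against 8.998, 7.24 and 7.12 FPKM in controls and did not pass (adjusted p = 0.854), its treated and control values overlapping. The 2 Ugt1a calls were each lost in 3 of the 12 fits that left out 1 library and that of Cyp1b1 in 4, among them for all 3 the fit without AHR CKO cuprizone replicate 2.

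Lists of energy and division genes likewise hold too few genes to set their calls apart from the 10.3% of all tested genes. None of 20 subunits of the mitochondrial respiratory chain passed (median 0.00), and 1 of 21 glycolysis genes rose, Hk2, with 2.03, 3.81 and 4.28 FPKM with cuprizone, against 1.205, 0.903 and 1.05 FPKM in controls. Of 15 cell cycle genes 1 rose and 1 fell. Ccnd1, cyclin D1, rose, with 25.6, 22.7 and 23.2 FPKM with cuprizone, against 13.4, 13.4 and 14.2 FPKM in controls. Rrm2, a subunit of ribonucleotide reductase, fell, with 1.69, 1.82 and 1.22 FPKM with cuprizone, against 4.35, 2.81 and 2.36 FPKM in controls, a call lost in 4 of the 12 fits that left out 1 library. Among 18 immediate early genes and 16 clock genes 1 rose in each. Ier3 had 10.8, 9.89 and 11.1 FPKM with cuprizone, against 7.07, 8.34 and 6.63 FPKM in controls, a call lost in 6 of those fits. Bhlhe41, a repressor of the clock, had 13.02, 19.7 and 13.8 FPKM with cuprizone, against 10.5, 10.7 and 9.098 FPKM in controls, a call lost in 3.

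Genes listed as markers of blood-derived cells ran from near the detection limit to well above it. Of the defining markers, S100a9 of neutrophils, Ly6c2 and Ccr2 of monocytes and Cd8a of T cells were in the table, and none of them reached 1 FPKM in 3 AHR CKO libraries. Ccr2, the chemokine receptor of monocytes, had 0.0688, 0.123 and 0.331 FPKM with cuprizone, against 0.0661, 0.125 and 0.0848 FPKM in controls. Ly6c2, another monocyte marker, had 0.816, 1.59 and 2.29 FPKM with cuprizone, against 0.454, 0.295 and 0 FPKM in controls, where 0 is as listed. Cd8a had 0.367, 0.416 and 0.517 FPKM with cuprizone, against 0.0922, 0.0224 and 0.0232 FPKM in controls. In each of the monocyte, neutrophil and B cell lists 1 gene passed. S100a4, of 2 tested monocyte genes, had 10.8, 28.8 and 32.8 FPKM with cuprizone, against 7.22, 6.95 and 8.03 FPKM in controls. Csf3r, the 1 tested neutrophil gene, had 5.02, 8.02 and 12.1 FPKM with cuprizone, against 1.67, 1.17 and 1.29 FPKM in controls. Cd22, the 1 tested B cell gene, had 1.62, 3.01 and 4.08 FPKM with cuprizone, against 0.154, 0.0506 and 0.0361 FPKM in controls. Cd22 entered the test through the cuprizone libraries alone. Csf3r and Cd22 are also expressed by microglia. The S100a4 call was lost without any 1 of AHR CKO cuprizone replicates 2 and 3 and AHR CKO control replicates 1 and 2. Summed levels ran from 50.7 to 73.7 FPKM with cuprizone and from 37.4 to 37.6 FPKM in controls for the 5 monocyte genes in the table. To these sums Ccr2 gave at most 0.331 FPKM and Ly6c2 at most 2.29 FPKM in any AHR CKO library. S100a4 gave 7.22, 6.95 and 8.03 FPKM in controls, so most of the control sums came from the other members, Itgal and Ly6a. The sums thus do not follow the defining markers. For the 3 neutrophil genes summed levels ran from 6.12 to 13.6 FPKM with cuprizone and from 1.85 to 3.27 FPKM in controls. With cuprizone Csf3r gave 5.02, 8.02 and 12.1 FPKM of 6.12, 8.68 and 13.6 FPKM. The part of such cells in the results was not tested. Pf4, the 1 tested border macrophage gene, had 0.764, 2.43 and 1.05 FPKM with cuprizone, against 3.02, 2.15 and 2.24 FPKM in controls and did not pass, except without AHR CKO cuprizone replicate 2 (adjusted p = 0.0486). Cd4, a co-receptor of helper T cells and the 1 tested gene of T and NK cells, had 11.3, 11.5 and 4.48 FPKM with cuprizone, against 11.7, 11.1 and 8.06 FPKM in controls and did not pass (adjusted p = 0.807). The T cell genes Cd3e and Cd3d were not matched in the table. Replicate 3 was the lowest library of each group for Cd4, as for the summed striatal markers. Which cells gave the Cd4 values was not tested.

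Of the vascular and matrix lists, 1 of 15 endothelial genes (6.67%) and 1 of 13 fibroblast and meningeal matrix genes (7.69%) rose, shares near the 7.21% of all tested genes. Icam1, an adhesion molecule for leukocytes and the endothelial gene that passed, had 5.94, 8.79 and 10.7 FPKM with cuprizone, against 2.12, 2.14 and 2.097 FPKM in controls. Cldn5, of endothelial tight junctions, had 41.1, 28.3 and 40.9 FPKM with cuprizone, against 38.5, 36.5 and 51.2 FPKM in controls and did not pass. Fn1, fibronectin, had 7.71, 9.06 and 17.9 FPKM with cuprizone, against 5.103, 4.18 and 5.46 FPKM in controls, a call lost in 4 of the 12 fits that left out 1 library. Treated and control values overlapped for Cldn5 and not for Icam1 or Fn1. None of 11 pericyte and smooth muscle genes passed, and Rgs5, a pericyte marker, had 11.4, 16.6 and 21.2 FPKM with cuprizone, against 26.5, 24.2 and 14.4 FPKM in controls, with overlap between groups. Nor did any of 9 tested genes of ependymal cilia pass. Foxj1, their transcription factor, had 15.997, 15.1 and 17.8 FPKM with cuprizone, against 12.3, 13.5 and 8.31 FPKM in controls.

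The response was compared with that of WT mice over the same genes and in the same model, with no library common to both contrasts. Hbb-b1, a haemoglobin gene, had 6.32, 23.03 and 0.208 FPKM with cuprizone, against 4.25, 5.86 and 4.25 FPKM in controls in AHR CKO. Its WT libraries had 66.5, 253 and 190 FPKM with cuprizone, against 94.3, 125 and 157 FPKM in controls. Genotype cannot be told apart from a batch or handling that differed along with it, and this was not tested. In WT 1197 genes rose (8.95%) and 1054 fell (7.88%). Of the genes that rose in AHR CKO, 729 also rose in WT, which is 75.6% of the AHR CKO and 60.9% of the WT calls. Of those that fell, 292 fell in both, which is 71.6% of the AHR CKO and 27.7% of the WT calls. A gene called in 1 genotype and not in the other is not shown to differ. The test of the difference itself passed for 5 genes (0.0374%): Opalin, Aspa, Hspa5, Egr2 and Hspa1b.

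Opalin and Aspa fell in both genotypes, and fell less in AHR CKO. Opalin, a membrane protein of oligodendrocytes, had 64.2, 46.6 and 51.9 FPKM with cuprizone, against 123, 123 and 120.1 FPKM in controls in AHR CKO. In WT it had 11.8, 13.1 and 16.9 FPKM with cuprizone, against 147, 175 and 90.6 FPKM in controls. The fall was 2.25-fold in AHR CKO and 9.86-fold in WT (difference of log2 changes 2.01, SE 0.29, adjusted p = 0.0461). Aspa, which breaks down N-acetylaspartate in oligodendrocytes, had 12.96, 12.8 and 14.4 FPKM with cuprizone, against 41.4, 34.8 and 28.3 FPKM in controls in AHR CKO. In WT libraries it had 4.65, 6.58 and 5.99 FPKM with cuprizone, against 64.03, 73.05 and 43.9 FPKM in controls. The fall was 2.6-fold in AHR CKO and 10.5-fold in WT (difference 1.86, SE 0.26, adjusted p = 0.0392). The treated AHR CKO libraries lay above all 3 treated WT libraries for both genes.

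Hspa5, Egr2 and Hspa1b rose in WT and did not pass in AHR CKO. Hspa5, the main chaperone of the endoplasmic reticulum, on chromosome 2 at 34771970 to 34777547, had 97.9, 89.5 and 92.4 FPKM with cuprizone, against 96.3, 106 and 98.1 FPKM in controls in AHR CKO. In WT it had 283, 229 and 241 FPKM with cuprizone, against 116, 130.4 and 109 FPKM in controls (difference -1.18, SE 0.14, adjusted p = 0.0274). The treated AHR CKO libraries lay within or just below the range of their controls. Egr2, a zinc finger transcription factor induced by activity, had 5.93, 7.55 and 8.86 FPKM with cuprizone, against 7.05, 5.89 and 6.02 FPKM in controls in AHR CKO. WT libraries had 6.11, 5.52 and 7.98 FPKM with cuprizone, against 1.199, 1.09 and 0.999 FPKM in controls (difference -1.64, SE 0.21, adjusted p = 0.0322). AHR CKO controls thus lay within the range of treated WT libraries. Hspa1b, an inducible heat shock protein 70, had 2.63, 2.96 and 3.06 FPKM with cuprizone, against 1.71, 2.31 and 3.31 FPKM in controls in AHR CKO. WT libraries had 14.2, 19.9 and 10.4 FPKM with cuprizone, against 1.95, 2.45 and 2.13 FPKM in controls (difference -2.08, SE 0.29, adjusted p = 0.0392). It has a near-identical neighbouring copy, so its reads may be split.

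Each of these 5 differences was lost in some fits: over 22 alternatives (21 for Hspa1b) Hspa5 passed in 14, Egr2 in 12, Aspa and Hspa1b in 10 each and Opalin in 8. Of the 12 fits that left out 1 library, Hspa5 passed in 5. Without WT control replicate 3 the test passed for 103 genes and without WT cuprizone replicate 2 for 37, whereas it passed for none without any 1 of AHR CKO cuprizone replicates 1 and 2, the 3 AHR CKO control replicates and WT control replicate 1. Hspa5 belongs to the 17 endoplasmic reticulum chaperones, of which 13 rose in WT (median 0.46) and 2 in AHR CKO (median 0.06). Of all tested genes 8.95% rose in WT and 7.21% in AHR CKO. The test of the difference itself passed for 1 of the 17, Hspa5. The next 5 genes by p did not pass for the difference: Nr1d1, Fbxo7, Cldn14 and 2 further chaperones. Nr1d1, a repressor of the clock, had 66.6, 77.4 and 70.1 FPKM with cuprizone, against 59.2, 63.7 and 69.7 FPKM in controls in AHR CKO. Its WT libraries had 27.3, 38.6 and 29.99 FPKM with cuprizone, against 61.3, 60.1 and 75.8 FPKM in controls (difference 1.18, SE 0.18, adjusted p = 0.0657). Its treated values lay below controls in WT and overlapped them in AHR CKO. Fbxo7, a substrate receptor of a ubiquitin ligase, had 29.5, 28.4 and 25.3 FPKM with cuprizone, against 21.6, 21.9 and 21.5 FPKM in controls in AHR CKO. Its WT libraries had 14.9, 16.7 and 16.9 FPKM with cuprizone, against 26.6, 32.1 and 22.5 FPKM in controls (difference 1.04, SE 0.16, adjusted p = 0.0657). For this gene treated values lay below controls in WT and above them in AHR CKO, where it did not pass. Cldn14, a claudin of tight junctions, had 1.396, 1.65 and 1.52 FPKM with cuprizone, against 3.49, 3.38 and 3.27 FPKM in controls in AHR CKO. Its WT libraries had 0.366, 0.376 and 0.456 FPKM with cuprizone, against 3.44, 5.11 and 4.08 FPKM in controls (difference 1.09, SE 0.18, adjusted p = 0.0667). Cldn14 fell in both genotypes. Calr, calreticulin, had 165, 155 and 151 FPKM with cuprizone, against 161, 170.3 and 190.3 FPKM in controls in AHR CKO. Its WT libraries had 290.1, 237 and 258 FPKM with cuprizone, against 151, 167 and 159.9 FPKM in controls (difference -0.85, SE 0.14, adjusted p = 0.0657). Treated values stood apart from controls in WT and not in AHR CKO, as they did for the disulfide isomerase Pdia6. That gene had 46.4, 48.04 and 52.4 FPKM with cuprizone, against 51.003, 54.2 and 55.8 FPKM in controls in AHR CKO. Its WT libraries had 107, 84.2 and 99.1 FPKM with cuprizone, against 57.2, 61.9 and 52.1 FPKM in controls (difference -0.88, SE 0.14, adjusted p = 0.0657).

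**Figure D5:**
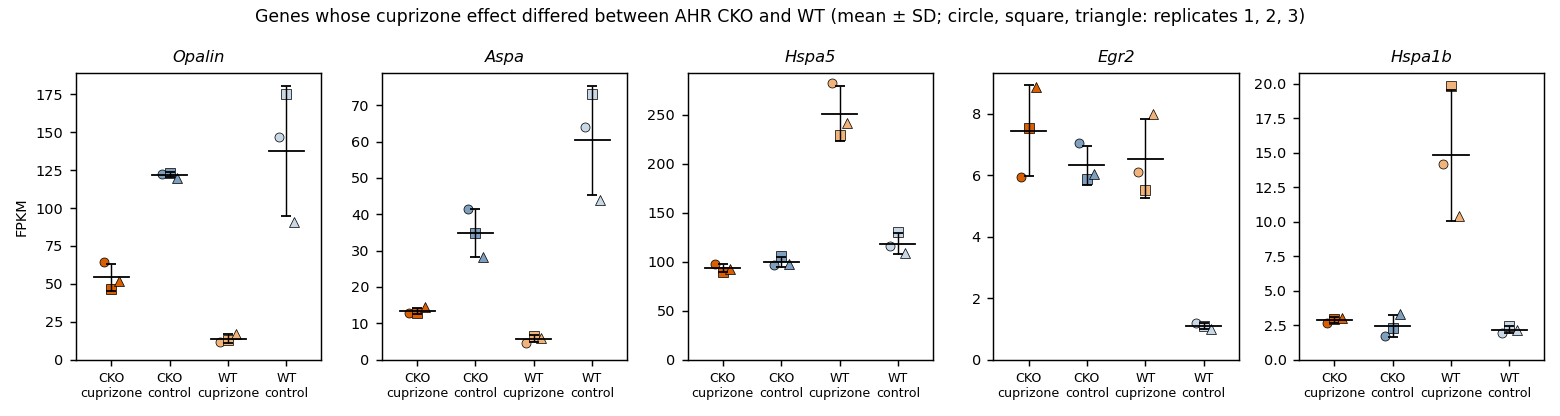
FPKM (y axes, from 0) of the 5 genes whose cuprizone effect differed between genotypes, in AHR CKO cuprizone, AHR CKO control, WT cuprizone and WT control (x axis), with mean ± SD of 3 libraries. Opalin and Aspa are higher in treated AHR CKO than in treated WT libraries, Hspa5 and Hspa1b are high only in treated WT, and Egr2 is low only in WT controls.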

How the data were processed

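Total RNA of mouse corpus callosum was sequenced in 12 libraries, 3 in each of 4 groups taken from the labels. The authors deposited 1 table of FPKM for 15584 genes, per the file headers. The submitters' processing notes name the builds GRCm38 and mm10, and the sources used here name no aligner or quantifier. FPKM are not counts, and a few very abundant genes can shift all others. Depth was guessed from low values of FPKM times length inside a fixed window, which bounds the result, and counts were not rebuilt. In 5 WT libraries the authors' table lists no gene at 0, so a 0 elsewhere is reported as listed. A spreadsheet had made dates of 25 symbols, which stayed in the tests unnamed.

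Tested genes had an FPKM of 1 or more in 3 or more AHR CKO libraries. The scale was log2(FPKM + 1), which shrinks the changes of low genes. limma 3.58.1 in R 4.3.3 (trend in the prior variance) was fitted to all 12 libraries with the 4 groups as terms. P-values are two-sided and Benjamini-Hochberg adjusted over the 13372 genes, with a threshold of 0.05. Folds are ratios of mean FPKM. The fit was tested on simulated data.

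The comparison, the 55 gene lists (909 symbols, 833 in the table, 771 tested) and the rules were chosen with earlier results of these data known. The rule names the 12 largest increases and decreases without overlap between groups, up to 4 members of each list by adjusted p (up to 2 by level where none passed), the 10 smallest p of the genotype difference, Ahr, Cx3cr1, Cyp1b1, Tiparp and Nqo1, and the cell type markers. Some genes that it names are not reported here. Mfge8, Atp6v1a, Slc2a5 and Cd9 were named after their values were seen, as the only members of their lists to pass in that direction, and Bst2 and Isg15 as 2 of the 4 genes with the largest increases among those with the motif. Positions are from GENCODE M21 and promoters from RefSeq (GRCm38.p6). The alternatives tried were no filter, a filter at a mean FPKM of 5, a pseudocount of 0.1, only the 6 AHR CKO libraries, 3 other scalings, no trend, sample weights, the replicate number as a block, a length and GC correction, a 2-fold minimum and leaving out each library.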

Additional observations from a re-analysis of the deposited data

Results flagged for a closer look

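In 5 genes the cuprizone effect in AHR CKO differed from that in WT by limma's interaction test at an adjusted p under 0.05, of 1297 at an unadjusted p under 0.05. The difference of log2 changes, AHR CKO minus WT, was 2.01 for Opalin, 1.86 for Aspa, -1.18 for Hspa5, -1.64 for Egr2 and -2.08 for Hspa1b. For Opalin and Aspa all 3 treated libraries of each genotype lay below all 3 of its controls. For Hspa5, Egr2 and Hspa1b this separation, in the upward direction, held in WT and not in AHR CKO. Over the alternatives the largest adjusted p was 0.224 for Opalin and 0.189 for each of the other 4.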

How the results depend on the processing

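The count of genes that rose was 585 with a mean FPKM of at least 5, 2514 with sample weights and 535 with a 2-fold minimum, and 666 to 993 when 1 library was left out. The count that fell was 614 after quantile normalization, 2250 with sample weights, 93 with a 2-fold minimum and 163 to 533 when 1 library was left out. The count for the genotype difference was 1 with no filter, 2554 with sample weights, 8 with the length and GC correction and 0 to 103 when 1 library was left out. Samples of the same replicate number did not deviate together (correlations of -0.194, -0.115 and -0.14), so the numbers are not taken to pair libraries. With the replicate number as a block 714 genes rose, 223 fell and 0 passed for the genotype difference. Of 143 named calls 126 held in each of the 12 fits that left out 1 library. No named call changed sign under any alternative. The cause of these shifts was not tested.

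Among named genes that did not pass, some changed sign near 0. Ahr was at -0.0629 after quantile normalization and from -0.0674 to 0.196 with 1 library left out. Tmem119 was at -0.0466 after rescaling to a common total, -0.0547 with sample weights, -0.0795 with the length and GC correction and from -0.0183 to 0.0721 with 1 library left out. Pdgfra was at 0.0151 with that correction. Ttr was at -1.13 with sample weights and from -0.225 to 1.33 with 1 library left out. Tiparp was at -0.0179 after rescaling to a common total and from -0.0118 to 0.139 with 1 library left out, and Cd4 from -0.445 to 0.147. Of list medians near 0, that of chaperones was -0.00668 and that of remyelination factors -9.15e-05 after rescaling to a common total. Control levels under 1 FPKM rest on few fragments, and no count-based error could be given.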
